A study of Astyanax mexicanus with 96 samples.

Results

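The ventricles of Pachon cavefish (PC) 3 days after a sham operation (3 dps, days post sham) were compared with ventricles of PC fish that had no operation. The members are 5 libraries labelled as sham at 72 hours and 3 labelled as uninjured, 8 of the 96 libraries of the series. Astyanax mexicanus is the Mexican tetra. Its sighted, river-living surface fish (SF) and its eyeless PC population are 1 species, and the series sampled both with and without cryo-injury, a freezing injury of the ventricle tip. All fish were 2 years old and each library came from 1 ventricle. In the sham operation the chest of the anaesthetised fish was opened and a probe at room temperature was touched to the ventricle, so that anaesthesia, incision and touch are all part of the comparison. The uninjured fish had none of these. Other groups are used below only to place the 3 dps libraries: PC sham at 6 h (6 hps) and 1 day (1 dps), PC at 3 days post cryo-injury (3 dpci), SF uninjured and SF 3 dps, with 5 libraries each except 3 for SF uninjured. The labels give no batch, date or hour of sampling, so the hour of the day cannot be told apart from the groups.

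The heart is wrapped by the epicardium, an epithelial sheet, and its inner face is lined by endocardium. In zebrafish both layers respond to cardiac injury, the epicardium by dividing and making matrix, and a sham group separates the response to surgery from that to lost muscle. Stress hormones of the glucocorticoid family act through a nuclear receptor on a known set of target genes. Immediate early genes, such as the Fos and Nr4a families, are transcribed within minutes of a stimulus and decay quickly.

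The libraries hold 3′ end reads of polyadenylated RNA, and totals ran from 1327051 to 1633542 counts in uninjured and from 1673388 to 2276038 in 3 dps libraries. Values are CPM, the reads of a gene scaled to a common library total with TMM-scaled library sizes, at which 3 reads equal 2.48 to 2.51 CPM in uninjured and 1.32 to 1.89 CPM in 3 dps libraries. Mean log2(CPM + 1) over 17 genes high in SF was 2.13 to 2.50 in these 8 libraries and 5.45 to 5.86 in SF libraries, and over 16 genes high in PC it was 4.34 to 4.97 against 0.48 to 1.05, so that all 8 lay on the PC side of both. In the order of the deposit PC 3 dps replicate 3 stands among the SF 3 dps libraries and SF 3 dps replicate 3 among the PC ones, although each library lay on the side of its labelled population by both measures. PC 6 hps replicate 1 and SF 6 hps replicate 1 stand exchanged in the same way. The 6 hps libraries were among those from which these genes were chosen, so their population was not checked separately. No 2 libraries of 1 group were alike enough to be 1 library deposited more than once (lowest chi-square per degree of freedom 5.15 over the 13 pairs within the 2 groups). The uninjured libraries correlated with each other at 0.94 over 5668 genes. The 3 dps libraries were less alike. Replicate 5 correlated with the other sham libraries at 0.82 to 0.88, and replicate 3 at 0.82 to 0.93. In replicate 3 erythroid and thrombocyte markers summed to 102712 CPM, against 3069 to 14589 in the other 7 libraries. In replicate 5 macrophage markers summed to 7748 CPM, against 872 to 1847 in the other 7, and cardiomyocyte markers to 56867 CPM, against 85151 or more. Results are therefore also given without replicates 3 and 5, an alternative chosen after seeing the data. Cardiomyocyte markers such as cmlc1 (11762 to 24498 CPM) and mb (15652 to 35119 CPM) were among the most abundant transcripts in all 8 libraries. In these bulk samples fewer cells of a type and less RNA per cell cannot be told apart.

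Between 3 dps and uninjured ventricles, 211 of 18763 genes tested were called (1.12%), with 129 higher at 3 dps (0.688%) and 82 lower (0.437%). A gene was called when edgeR's quasi-likelihood test gave an adjusted p under 0.05 and the fold change was over 2. The median absolute log2 change of the called genes was 1.60, and the median log2 change over all genes was 0.08. In 91 of the 129 higher genes every 3 dps library lay above every uninjured library, as it did in 682 of all genes (3.63%). In 70 of the 82 lower genes every 3 dps library lay below, as in 599 of all genes (3.19%). The model holds 1 factor of unwanted variation (RUVg). It was estimated from the genes whose coefficient of variation over all libraries of the series was under the median. Whether the sham operation changed those genes was not tested. The value of the factor was -0.013 to -0.031 in uninjured and -0.040 to -0.139 in 3 dps libraries, without overlap. Without the factor 400 genes were called, 289 higher and 111 lower, and 162 of the 211 were among them. Leaving out replicates 3 and 5 gave 134 calls, 105 of them shared with the 211. The uninjured group weighs more: without its replicate 3 there were 60 calls and without its replicate 5 there were 80. Of 65 called genes chosen for description, 35 lost the call without uninjured replicate 3, 30 without uninjured replicate 5 and 14 without uninjured replicate 1, against 15, 14 and 7 without sham replicates 5, 2 and 3 and 3 each without replicates 1 and 4.

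**Figure D1:**
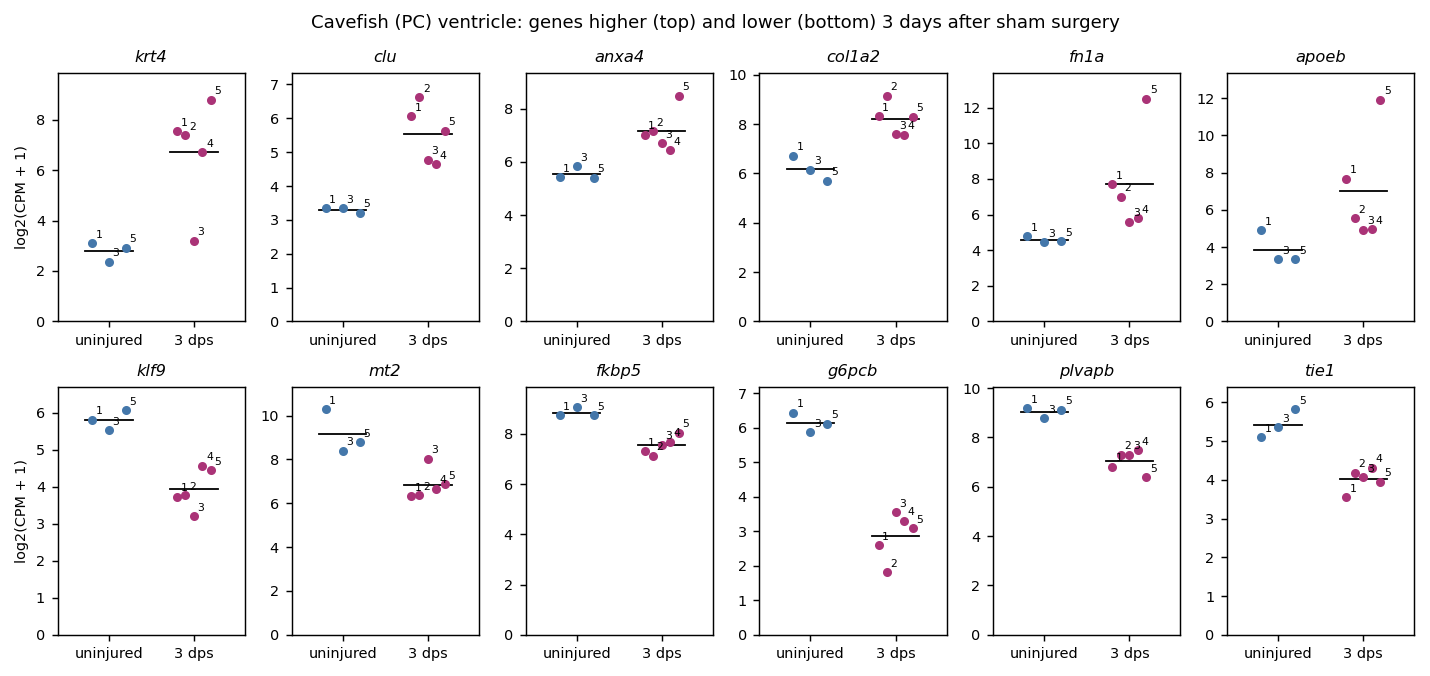
Expression as log2(CPM + 1) on the vertical axis in each of the 3 uninjured (blue) and 5 3 dps (purple) PC ventricles, labelled with replicate numbers; black lines are group means. krt4 in 3 dps replicate 3 (8.19 CPM) sits near the uninjured libraries, and fn1a and apoeb are far higher in replicate 5 (5785 and 3896 CPM) than in any other library.

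Values below are in CPM, first for uninjured replicates 1, 3 and 5 and then for 3 dps replicates 1 to 5. Among the higher genes with an unambiguous symbol the smallest adjusted p was that of krt4 (ENSAMXG00000017238, chromosome 13, 36875844 to 36882342), a type II keratin, which stood at 7.52, 4.15 and 6.61 and then at 184, 167, 8.19, 103 and 441 CPM. Its log2 change was 4.26 (SE 0.67, adjusted p 6.4e-05). All 5 sham libraries lay above the uninjured ones, replicate 3 only narrowly. A type I keratin annotated as keratin 19-like, si:ch211-156l18.7 (chromosome 5, 14684201 to 14711866), had 310, 319 and 222 CPM before and 1103, 1110, 738, 565 and 965 CPM at 3 dps, a log2 change of 1.60 (SE 0.27, adjusted p 0.00013) with no overlap. For krt8, a symbol that 2 genes carry (the one on chromosome 15, 34786106 to 34793929), the values were 671, 629 and 605 and then 2065, 2056, 967, 814 and 2357 CPM, a log2 change of 1.16 (adjusted p 0.0045). Type I and type II keratins pair to form the filaments of epithelial sheets. clu, which encodes the secreted chaperone clusterin (chromosome 3, 34571243 to 34583177), went from 9.19, 9.14 and 8.26 to 66.2, 97.2, 26.4, 23.9 and 48.8 CPM, a log2 change of 2.33 (SE 0.45, adjusted p 0.00096). icn, annotated as ictacalcin-like, a calcium-binding S100 protein of fish epithelia, had 443, 448 and 272 and then 1419, 1103, 533, 1292 and 2073 CPM (log2 change 1.30, adjusted p 0.01). Without uninjured replicate 5 the calls of icn (log2 change 1.05, adjusted p 0.15) and krt8 (adjusted p 0.054) ended. The former belongs to the list of liver, pancreas and gill or skin markers, whose other members summed to 66.1 to 97.2 CPM in uninjured and 57.8 to 114 CPM in 3 dps libraries.

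Of 25 measured fibroblast and epicardium markers 6 were called higher and 1 lower, and the median log2 change of the 21 detected members (at least 10 reads in the 8 libraries) was 0.93, against 0.07 over the 12108 detected genes. The 6 were krt4, krt8, clu, fn1b, col5a1 and col1a2, and the 1 lower was anxa1a. Without replicates 3 and 5 the counts were 5 and 1. The epicardial genes tbx18, wt1a, wt1b and aldh1a2 were not called, with log2 changes of 0.47, -0.67, -0.26 and 0.55.

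Genes for the extracellular matrix were higher too. Type I collagen is the main fibrous collagen of connective tissue and type V collagen sets its fibril width. col1a2 (chromosome 23, 27417703 to 27442987) had 104, 69.8 and 51.2 CPM in uninjured ventricles and 319, 565, 192, 189 and 315 CPM at 3 dps, a log2 change of 1.63 (SE 0.39, adjusted p 0.014). The groups did not overlap. col1a1b (71, 61.5 and 59.5, then 227, 413, 120, 133 and 311 CPM) changed by 1.40 (adjusted p 0.04). col5a1, a symbol of 2 genes, changed by 1.69 (adjusted p 0.012). In all 3 the highest sham library was replicate 2. These were the 3 of 40 measured collagen genes that were called, all higher, and the detected collagens had a median log2 change of 0.85, or 0.84 without replicates 3 and 5. Without the factor 6 collagens were called. All 3 lost the call without sham replicate 2 (col1a2 1.29, adjusted p 0.092; col1a1b 1.07, 0.19; col5a1 1.40, 0.068) and without uninjured replicate 3 (adjusted p 0.075, 0.13 and 0.06 in the same order) or 5 (0.16, 0.19 and 0.14). col1a1b lost it without sham replicate 5 (adjusted p 0.059) and uninjured replicate 1 (0.068) as well.

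Fibronectin is a glycoprotein of provisional matrix, the first scaffold laid down at a wound. fn1a (chromosome 19, 11277565 to 11309198) had 26.7, 20.8 and 21.5 CPM before and 209, 128, 47.2, 54.4 and 5785 CPM at 3 dps. This is a log2 change of 3.63 (SE 0.71, adjusted p 0.0012) in the model, or of 1.54 (adjusted p 0.12) with replicates 3 and 5 left out. fn1b (63.5, 55.7 and 42.1, then 162, 227, 125, 84.4 and 498 CPM) changed by 1.59 (adjusted p 0.011), and by 1.29 without them (adjusted p 0.064). Both paralogs were above every uninjured library in all 5 sham libraries. Of 55 measured matrix glycoprotein genes these were the 2 called. adamts8a, which encodes a secreted metalloproteinase, was the 1 called gene among 52 metalloproteinases and inhibitors (4.18, 4.99 and 4.13, then 4.49, 22.3, 15.1, 21.1 and 14.1 CPM, log2 change 1.99, adjusted p 0.019). Its sham replicate 1 lay among the uninjured libraries, and it lost its call without sham replicate 2 (log2 change 1.83, adjusted p 0.058) or any 1 uninjured library (adjusted p up to 0.1). fn1a lost its call without sham replicate 5 (log2 change 1.36, adjusted p 0.17), and fn1b without sham replicate 5 (1.25, adjusted p 0.059), uninjured replicate 3 (1.66, adjusted p 0.054) or 5 (1.39, adjusted p 0.12).

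Annexins bind membranes in the presence of calcium. Of 35 annexin, S100 and galectin genes 3 were higher and 1 was lower, or 8 and 2 without the factor. anxa4 (chromosome 20, 18792481 to 18808378) went from 41.8, 55.7 and 41.3 to 129, 140, 103, 85 and 357 CPM, a log2 change of 1.48 (SE 0.28, adjusted p 0.00079). anxa5b changed by 1.98 (adjusted p 0.0019, or 0.063 without replicates 3 and 5) and anxa2a by 1.36 (adjusted p 0.013), the latter with replicate 3 (73.7 CPM) below all uninjured libraries and no call without replicate 5 (log2 change 0.78, adjusted p 0.18) or without uninjured replicate 3 or 5 (adjusted p 0.061 and 0.15). The lower gene was anxa1a, 1 of 3 genes with that symbol, which had 6.69, 89.7 and 4.13 CPM in uninjured and 3.93, 1.52, 2.52, 1.11 and 2.64 CPM in 3 dps libraries. Its log2 change of -4.00 (adjusted p 0.0038) rests on uninjured replicate 3, without which it was -1.33 (adjusted p 0.8).

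Calls among macrophage markers rested on sham replicate 5. Of 24 measured, 3 were called higher: apoeb, which encodes an apolipoprotein E, grn1, a granulin gene, and spi1b, which encodes the Pu.1 transcription factor of myeloid cells. Without the factor 8 were called higher, with a median of 1.47 over the detected markers, and with 2 factors 1 was. apoeb (chromosome 11, 7048861 to 7052742) had 29.3, 9.14 and 9.09 CPM before and 205, 46.1, 29.6, 30 and 3896 CPM at 3 dps (log2 change 4.05, SE 0.84, adjusted p 0.0027). Every sham library was above the uninjured range, replicates 3 and 4 only narrowly. grn1 (16.7, 2.49 and 9.92, then 245, 89.1, 24.6, 18.9 and 1101 CPM) changed by 2.69 (adjusted p 0.028). spi1b (30.1, 24.9 and 39.7, then 85.9, 44.6, 108, 43.3 and 386 CPM) changed by 1.41 (adjusted p 0.025). Without replicates 3 and 5 none of the 3 was called (adjusted p 0.13, 0.11 and 0.65 in that order), and the median of the detected macrophage markers went from 0.83 to 0.18. Without replicate 5 alone the log2 changes were 1.67, 1.91 and 0.86 (adjusted p 0.19, 0.16 and 0.23), and grn1 and spi1b were not called without uninjured replicate 3 either (adjusted p 0.19 and 0.13), nor apoeb, grn1 and spi1b without uninjured replicate 5 (0.054, 0.16 and 0.074). Beside them, f13a1b, which encodes the clot-crosslinking factor XIII A chain and overlaps 2 annotated genes on its strand, stood at 1.67, 1.66 and 1.65 and then at 25.3, 11.1, 4.41, 6.11 and 196 CPM (log2 change 3.23, adjusted p 0.011, or 0.058 without replicates 3 and 5). prdx1, a peroxide-removing enzyme gene, changed by 1.89 (adjusted p 0.011, or 0.07 without them). Without replicate 5 alone f13a1b changed by 2.10 (adjusted p 0.097) and prdx1 by 1.37 (0.086). Further calls ended for spi1b without uninjured replicate 1 (adjusted p 0.066), grn1 without sham replicate 1 (0.057), f13a1b without uninjured replicates 3 or 5 (0.061 and 0.086) and prdx1 without uninjured replicates 1 or 5 (0.052 and 0.068).

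Neutrophil and lymphocyte markers gave no call in edgeR's test of the reported model, while without the factor 1 neutrophil marker was called higher. Of the 12 detected neutrophil markers 9 had a positive log2 change. Their median was 0.89, or 1.85 without the factor and 0.45 without replicates 3 and 5. The 11 detected lymphocyte markers had a median of -0.40. Of 19 neutrophil markers 2 had an unadjusted p under 0.05 and a higher level and 1 a lower level, and DESeq2 called 1 higher. Of 17 lymphocyte markers 1 had an unadjusted p under 0.05, with a lower level, and DESeq2 called 0. Over all 18763 genes tested 2371 (12.6%) had such a p, 1320 with a higher and 1051 with a lower level. Neutrophil markers other than s100a10b, the most abundant member, summed to 13.3 to 41 CPM in uninjured and 25.5 to 220 CPM in 3 dps libraries. s100a10b itself had 2148, 2449 and 1992 CPM and then 3411, 3027, 3284, 2989 and 4035 CPM, a log2 change of 0.67 (adjusted p 0.064). LYZ, a lysozyme gene, overlapped between the groups (15.9, 0 and 3.31, then 69, 13.7, 25.2, 4.44 and 27.3 CPM).

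Cell cycle genes were higher in part of the sham ventricles. Of 59 measured mitosis and cytokinesis genes 6 were called higher and 0 lower, with a median log2 change of 1.75 over 55 detected members. Of 50 DNA replication genes 3 were higher and 0 lower, with a median of 0.69. Without the factor these counts were 13 and 5 higher, and in the 8 libraries alone 3 and 1. aurkb, the kinase of the chromosomal passenger complex (ENSAMXG00000003849), had no read in any uninjured library and 4.49, 21.3, 12, 2.78 and 10.1 CPM at 3 dps. Against a floor of 3 reads per uninjured library it was at least 4.06-fold higher (adjusted p 0.0066). spc24, a kinetochore gene, had 0.836, 0 and 0 and then 7.86, 17.2, 12.6, 0.555 and 9.23 CPM (adjusted p 0.019), and the ratio of pooled reads was 34.5 with a 95% counting interval of 6.04 to 1377. mki67, a gene of proliferating cells, had 1.67, 0.831 and 0 and then 7.3, 14.2, 21.4, 5 and 12.3 CPM (log2 change 3.17, adjusted p 0.027). Sham replicates 2 and 3 were the highest for each of the 6. The genes mki67 and cdca8 were named after their values were seen, to complete the called members. cks2, a cofactor of cyclin-dependent kinases, reached 55.2 and 88.8 CPM in them, against 12.3, 2.22 and 6.6 CPM in replicates 1, 4 and 5 and 2.49 to 5.78 CPM in uninjured libraries (log2 change 2.74, adjusted p 0.027). ube2c (log2 change 2.06, adjusted p 0.012) and cdca8 (3.69, adjusted p 0.049), which act in mitotic exit and in the passenger complex, overlapped between the groups as well.

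Among DNA replication genes, mcm3, a subunit of the replicative helicase, had 6.69, 3.32 and 4.13 CPM and then 29.8, 53.2, 55.4, 3.33 and 13.6 CPM (log2 change 2.34, SE 0.53, adjusted p 0.0083). pcna, the sliding clamp, had 70.2, 41.5 and 30.6 and then 82.5, 147, 187, 48.3 and 80.9 CPM (log2 change 1.23, adjusted p 0.007). Replicate 4 lay within the uninjured range for both. asf1ba, a histone chaperone gene, had no overlap (10.9, 12.5 and 9.09, then 21.9, 33.9, 36.5, 20 and 32.1 CPM, log2 change 1.29, adjusted p 0.026). Summed over the mitosis list, the uninjured libraries had 397, 302 and 317 CPM and the sham libraries 519, 1083, 950, 362 and 458 CPM. Without replicates 3 and 5 the calls were 1 of 59 mitosis genes and 1 of 50 replication genes, and the median of the mitosis list was 1.41. Without replicate 3 alone cks2 changed by 1.76 (adjusted p 0.24), cdca8 by 2.88 (0.19), mki67 by 2.69 (0.09), ube2c by 1.66 (0.057) and pcna by 0.96 (0.043, under the fold limit). Without replicate 2 alone spc24 (adjusted p 0.064), asf1ba (0.067), cks2 (0.077), cdca8 (0.11) and mki67 (0.056) were not called, and without uninjured replicate 1 asf1ba (0.069), cks2 (0.088) and cdca8 (0.18) were not. Without uninjured replicate 5 none of the 9 cell cycle genes was called (aurkb with an adjusted p of 0.06, the others 0.074 to 0.22), and without uninjured replicate 3 none was either (0.054 to 0.15).

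Glucocorticoid targets were the list with the most genes lower. Of 24 measured, 5 were called lower and 0 higher (8 lower without the factor), and 8 of the 22 detected members had a positive log2 change, with a median of -0.92 (-1.22 without the factor and -0.85 without replicates 3 and 5). mt2, a metallothionein gene whose symbol 2 genes carry (chromosome 18, 15775529 to 15776236), had 1248, 337 and 443 CPM in uninjured and 78.6, 81.5, 261, 100 and 116 CPM in 3 dps ventricles. Its log2 change was -2.13 (SE 0.33, adjusted p 6.4e-05). klf9, which encodes a Krüppel-like transcription factor (unplaced scaffold APWO02000062.1), went from 55.2, 44.9 and 66.1 to 12.3, 12.7, 8.19, 22.8 and 20.7 CPM, a log2 change of -2.23 (SE 0.37, adjusted p 0.00013). fkbp5, a co-chaperone of the glucocorticoid receptor that the receptor also induces (chromosome 13, 35528042 to 35549093), had 426, 533 and 429 and then 158, 139, 190, 205 and 264 CPM, a log2 change of -1.21 (SE 0.26, adjusted p 0.0045). ddit4, an inhibitor of the growth kinase mTORC1, had 228, 164 and 155 and then 45.5, 52.2, 82.5, 66.6 and 81.3 CPM (log2 change -1.78, adjusted p 0.0045). zbtb16b, a zinc finger gene, had 10.9, 24.9 and 23.1 and then 0, 4.05, 0.63, 5 and 4.4 CPM (log2 change -2.39, adjusted p 0.0045). In none of the 5 did the groups overlap, and all 5 were called without replicates 3 and 5. Without uninjured replicate 3 fkbp5 (log2 change -1.04, adjusted p 0.07) and zbtb16b (-2.15, adjusted p 0.061) were not called, nor zbtb16b without uninjured replicate 5 (adjusted p 0.05), nor ddit4 without uninjured replicate 1 (-1.53, adjusted p 0.053). klf13, another Krüppel-like factor gene that is not on the list, was lower by a similar margin (80.2, 106 and 88.4, then 23, 24.3, 31.5, 29.4 and 44 CPM, log2 change -1.51, adjusted p 0.00079).

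Among the other lower genes with the smallest adjusted p, eif4ebp3l, a repressor of cap-dependent translation (chromosome 24, 1830046 to 1850535), had 160, 229 and 231 CPM before and 77.5, 42.5, 52.3, 77.8 and 48.8 CPM at 3 dps, a log2 change of -1.93 (SE 0.31, adjusted p 9.7e-05). txnipa, which limits glucose uptake, had 1787, 1812 and 2205 and then 809, 794, 1085, 1019 and 1074 CPM (log2 change -1.10, adjusted p 0.00079). g6pcb, a glucose-6-phosphatase gene, had 85.3, 57.3 and 68.6 and then 5.05, 2.53, 10.7, 8.89 and 7.47 CPM (log2 change -2.77, SE 0.54, adjusted p 0.0013), and glulb, glutamine synthetase, went from 30.1, 77.3 and 36.4 to 7.3, 8.1, 4.41, 20 and 9.23 CPM (log2 change -2.36, adjusted p 0.0011). None of these groups overlapped. hif1al (104, 111 and 149, then 41.5, 40.5, 52.9, 44.4 and 59.8 CPM, log2 change -1.43, adjusted p 0.00047) and ddit4 were the 2 of 31 hypoxia genes called, both lower, while the detected members of that list had a median of 0.12. sdhaf4, an assembly factor of respiratory complex II, changed by -1.23 (adjusted p 0.0012), fam107b by -1.06 (adjusted p 0.00079) and the uncharacterised gene ENSAMXG00000028691 by -1.83 (574, 458 and 350, then 170, 107, 122, 143 and 153 CPM, adjusted p 0.00085). Without uninjured replicate 3 glulb (-1.78, adjusted p 0.083) and fam107b (-0.97, adjusted p 0.024) were not called, nor was fam107b without sham replicate 2 (-0.98).

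Endothelial and endocardial markers gave 2 calls of 34, both lower. plvapb, a protein of the diaphragms of fenestrated vessels (chromosome 5, 16944938 to 16953772), had 578, 440 and 554 CPM in uninjured and 111, 156, 157, 179 and 83.1 CPM in 3 dps libraries, a log2 change of -1.55 (SE 0.30, adjusted p 0.0012). tie1, a receptor tyrosine kinase of endothelium (chromosome 13, 41272990 to 41307650), had 33.4, 39.9 and 55.4 and then 10.7, 17.2, 15.7, 18.9 and 14.5 CPM, a log2 change of -1.63 (SE 0.31, adjusted p 0.00085). Neither pair of groups overlapped. Of the 29 detected members 12 had a positive log2 change, the median was -0.14, and without plvapb the list summed to 1367 to 1540 CPM in uninjured and 1116 to 1443 CPM in 3 dps libraries. tgfb3, a transforming growth factor ligand, was the 1 called of 82 growth factor signalling genes (85.3, 53.2 and 52.1, then 28.1, 33.4, 17.6, 35 and 14.1 CPM, log2 change -1.35, adjusted p 0.021, or 0.21 without replicates 3 and 5). socs1a, a suppressor of cytokine signalling, was the 1 called of 20 Stat3 and Socs genes (log2 change -1.85, adjusted p 0.049, and 0.36 without the factor). tgfb3 lost its call without sham replicate 3 (adjusted p 0.064) or 5 (0.069) or uninjured replicate 1 (0.2) or 3 (0.061), and socs1a without any 1 of the 8 libraries but sham replicate 4 (0.07 to 0.22).

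Of 22 measured immediate early genes, klf6a was called higher and btg2 lower, while the median of the 17 detected was 0.97. btg2, an antiproliferative gene, had 456, 384 and 416 and then 232, 173, 194, 291 and 196 CPM (log2 change -1.21, adjusted p 0.012), without overlap. klf6a changed by 1.00 (adjusted p 0.025, called in 4 of 18 alternatives), and by 0.78 (adjusted p 0.12) without sham replicate 5 and 0.91 (0.14) without uninjured replicate 3. btg2 was not called without uninjured replicate 1 (adjusted p 0.071) or 3 (0.055), without sham replicates 3 and 5 (-1.10, adjusted p 0.084) or without the factor (-0.95, adjusted p 0.052). sik1, a salt-inducible kinase gene that cyclic AMP signals switch on (chromosome 19, 5423652 to 5440583), was higher in all sham libraries (30.9, 19.1 and 32.2, then 116, 174, 90, 109 and 48.4 CPM, log2 change 1.96, SE 0.37, adjusted p 0.00079). bhlhe41, a repressor of the circadian clock (chromosome 18, 14533920 to 14539928), was the 1 called of 36 clock genes: 3.34, 0.831 and 2.48 CPM before and 4.49, 14.7, 23.3, 20.5 and 22 CPM after sham, which is a log2 change of 2.94 (SE 0.54, adjusted p 0.00074) with replicate 1 nearest to the uninjured libraries.

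Among muscle and metabolic genes, none of 28 cardiomyocyte markers was called in the reported model or by DESeq2. At an unadjusted p under 0.05, 4 of them were higher and 1 lower, against 12.6% of all genes in either direction. Of these markers 1 was called lower without the factor, 1 higher with 2 factors and 1 higher without replicates 3 and 5. mb, myoglobin, and cmlc1, a cardiac myosin light chain, overlapped between the groups. hand2, a transcription factor gene of the developing heart that the list does not hold (chromosome 25, 465444 to 468759), had 204, 206 and 235 and then 372, 467, 402, 547 and 262 CPM (log2 change 1.28, SE 0.23, adjusted p 0.00047), with no overlap, but 0.93 and under the fold limit without the factor. zgc:86709, annotated as an alpha cardiac actin, had 103, 116 and 106 and then 341, 596, 168, 307 and 184 CPM (log2 change 1.98, adjusted p 0.002). purba, which encodes a purine-rich element binding protein, had 23.4, 33.2 and 28.9 and then 95.4, 98.8, 73, 60 and 68.6 CPM (log2 change 1.54, adjusted p 0.0011), and si:dkey-184p18.2, named after a human open reading frame, changed by 1.65 (adjusted p 0.00056). ATP2A1, a sarcoplasmic reticulum calcium pump gene whose symbol 3 genes carry, was the 1 called of 39 skeletal muscle markers. It changed by 1.11 (adjusted p 0.019, and 0.2 without the factor), and was not called without any 1 uninjured library (adjusted p 0.058 to 0.097). Its sham replicate 5 had 199 CPM, against 178 to 199 CPM in uninjured libraries. Of the 20 detected markers 6 had a positive log2 change, and their median was -0.28, or 0.00 without the factor. The list summed to 8532 to 10637 CPM in uninjured and 4884 to 8242 CPM in 3 dps libraries.

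Of 43 glycolysis genes 3 were called, all higher: the pyruvate kinase genes pkmb (100, 120 and 109, then 207, 261, 325, 185 and 106 CPM, log2 change 1.30, adjusted p 0.0015) and pkma (329, 224 and 320, then 662, 622, 524, 478 and 740 CPM, log2 change 1.07, adjusted p 0.0023), and hk1, hexokinase (log2 change 1.03, adjusted p 0.025). Only pkmb overlapped between the groups among these 3, through replicate 5. Without the factor pkma alone was called. pkma lost its call without uninjured replicate 3 (log2 change 0.97, adjusted p 0.054), and hk1 without uninjured replicate 3 (adjusted p 0.062) or 5 (0.22) or sham replicate 2 (0.063). Of 123 TCA cycle and oxidative phosphorylation genes 1 was called, and their median was 0.02 with the factor and -0.30 without it, so that the sign of this list depends on the factor. In 14 of the 123 every sham library lay below every uninjured one and in 2 above, against 3.19% and 3.63% of all genes. At an unadjusted p under 0.05, 18 were higher and 15 lower. Without the factor 1 was called higher and 2 lower. The list summed to 139998, 152640 and 126428 CPM in uninjured and to 96226, 98406, 155200, 125745 and 67356 CPM in 3 dps libraries. The call in the reported model was atp5pd, an ATP synthase subunit gene, 1 of 2 with that symbol: 4.18, 3.32 and 8.26 CPM in uninjured and 6.17, 3.55, 448, 271 and 132 CPM in 3 dps ventricles (log2 change 5.36, SE 1.18, adjusted p 0.0051, or 0.061 without uninjured replicate 3). Sham replicates 1 and 2 were at the uninjured level, and SF libraries had 432 to 733 CPM. Single PC libraries of other groups were high as well. PC 6 hps replicate 5 had 316 CPM, against 1.39 to 13.1 CPM in the rest of its group. PC 3 dpci replicate 3 had 181 CPM, against 0.513 to 4.32 CPM. All PC 1 dps libraries had 2.31 to 7.41 CPM. Of 46 fatty acid genes and 12 malate-aspartate shuttle genes edgeR called 0. The median of the 41 detected fatty acid genes was 0.17 with the factor and -0.13 without it, so its sign depends on the factor too. In 9 of the 46 every sham library lay below every uninjured one and in 1 above, against 3.19% and 3.63% of all genes. At an unadjusted p under 0.05, 5 fatty acid genes were higher and 6 lower and 2 shuttle genes were higher. Over all genes 12.6% had such a p in either direction. DESeq2 called 1 fatty acid gene higher and 0 shuttle genes. fabp3, the heart fatty acid-binding protein, had 1178, 1541 and 1044 and then 573, 453, 911, 647 and 305 CPM (log2 change -0.59, adjusted p 0.23, or -1.12 and 0.016 without the factor). hspa5, the main chaperone of the endoplasmic reticulum, was the 1 called of 65 heat shock and unfolded protein genes (176, 78.9 and 119, then 173, 169, 147, 524 and 563 CPM, log2 change 1.34, adjusted p 0.011), with replicates 4 and 5 high and the other 3 overlapping the uninjured range. It was not called without sham replicate 4 (log2 change 0.97, adjusted p 0.093) or 5 (1.06, adjusted p 0.063), nor without uninjured replicate 3 (adjusted p 0.12) or 5 (0.077).

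Ribosomal protein genes had mostly negative log2 changes. Of 83 detected, 10 had a positive log2 change, and the median was -0.36. It was -0.59 without the factor, -0.35 with 2 factors and -0.57 without replicates 3 and 5. At an unadjusted p under 0.05, 36 of the 86 measured were lower and 0 higher, against 12.6% of all genes in either direction. The list summed to 448591, 553779 and 378084 CPM in uninjured ventricles and to 273450, 246205, 468064, 272671 and 222705 CPM at 3 dps. Replicate 3, the library rich in erythroid RNA, was within the uninjured range and the other 4 were below it. Erythroid and thrombocyte markers themselves gave 1 call, the fibronectin gene fn1b, already counted above among the matrix genes and the fibroblast and epicardium markers. They had a median log2 change of 1.09, and -0.40 without replicates 3 and 5. Among the remaining lists, none of 33 cytokine genes, 50 interferon and antigen presentation genes, 14 smooth muscle markers and 23 cardiac channel genes was called in the reported model or by DESeq2, while 1 channel gene was called higher with 2 factors and 1 without replicates 3 and 5. At an unadjusted p under 0.05 they held 1, 1, 1 and 1 higher and 3, 5, 0 and 1 lower, against 12.6% of all genes in either direction.

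**Figure D2:**
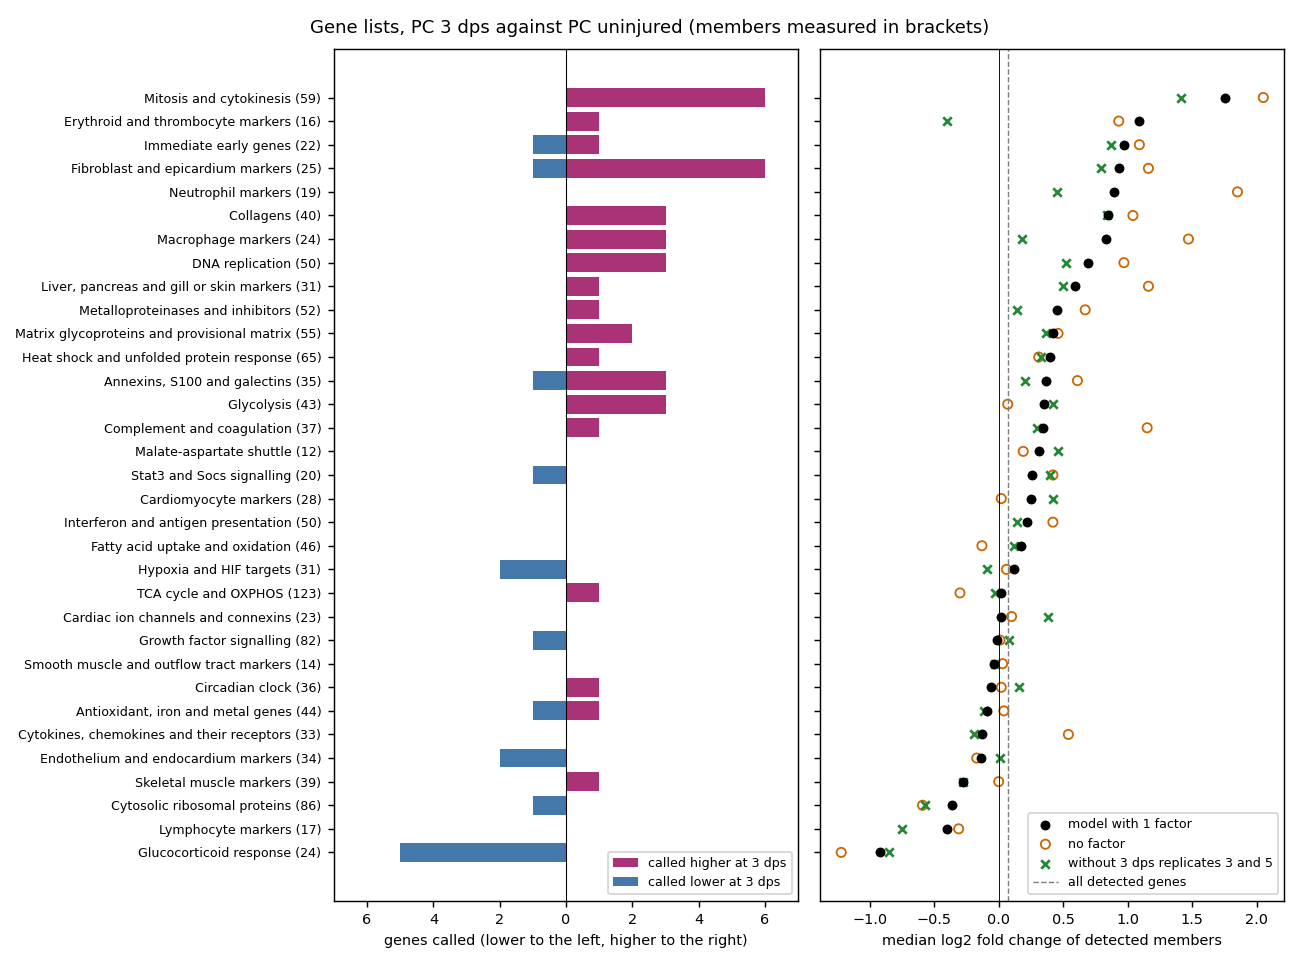
Left, the number of genes of each list called higher (purple) or lower (blue) at 3 dps; right, the median log2 fold change of the detected members in the model with 1 factor (black), without a factor (orange circles) and without 3 dps replicates 3 and 5 (green crosses). Mitosis genes have the highest median (1.75) and glucocorticoid targets the lowest (-0.92), and erythroid markers cross 0 when replicates 3 and 5 are left out.

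To place day 3 in the time after the operation, the earlier sham groups were set beside it. They were compared with the same 3 uninjured libraries, so each comparison is given with its own values. At 6 hps 956 genes were called (5.10%), 571 higher (3.04%) and 385 lower (2.05%), at 1 dps 809 (4.31%), 408 higher (2.17%) and 401 lower (2.14%), and at 3 dps 211. Heat shock and unfolded protein genes numbered 20 higher at 6 hps, 18 at 1 dps and 1 at 3 dps. krt4 had log2 changes of 2.71, 2.80 and 4.26 at the 3 times, and bhlhe41 of 2.36, 3.17 and 2.94. mt2 stood at -4.58, -4.18 and -2.13, klf9 at -0.37, -1.59 and -2.23, fkbp5 at -1.01, -1.67 and -1.21, and eif4ebp3l at -1.65, -2.32 and -1.93. apoeb had 0.92, -0.09 and 4.05, and was called at 3 dps only. Its mean at 6 hps was 11.5 CPM, below the uninjured mean of 15.8 CPM, so the sign of 0.92 is not that of the CPM. klf9 had 18.1 to 45.8 CPM at 6 hps, against 44.9 to 66.1 CPM in uninjured libraries. It had 9.24 to 24.4 CPM at 1 dps and 8.19 to 22.8 CPM at 3 dps. These last 2 ranges overlap, so the further fall of its log2 change to day 3 is not seen in the CPM. All log2 changes here are from the model with the factor, whose value was 0.027 to 0.132 in 6 hps libraries.

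A direct comparison of 3 dps with 1 dps, 5 libraries each, does not use the uninjured fish. It called 545 genes (2.90%), 325 higher at 3 dps (1.73%) and 220 lower (1.17%). The count fell to 318 without 3 dps replicate 3. The factor was -0.018 to 0.052 in 1 dps and -0.040 to -0.139 in 3 dps libraries, without overlap. The log2 changes of this comparison hold the factor and the CPM do not, so they need not equal the ratios of the CPM printed. The smallest adjusted p belonged to si:ch73-86n18.1, uncharacterised, with 147, 136, 148, 118 and 234 CPM at 1 dps and 27.5, 18.2, 17.6, 27.2 and 30.8 CPM at 3 dps (log2 change -2.74, SE 0.30, adjusted p 6.5e-11), while the uninjured libraries had 22.4 to 30.9 CPM. hp, haptoglobin, a plasma protein that binds free haemoglobin, had 133, 78.4, 112, 79.6 and 182 CPM at 1 dps and 14, 14.2, 2.52, 13.3 and 7.03 CPM at 3 dps (log2 change -3.86, SE 0.51, adjusted p 9.4e-08). Both overlapped the uninjured range on day 3, when hp in uninjured libraries was 1.67 to 12.5 CPM. hspa5 changed by -1.18 (adjusted p 0.0049), 1 of 11 heat shock genes lower than at 1 dps, against 1 higher.

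In the other direction, 26 of 59 mitosis genes were higher at 3 dps than at 1 dps and 0 lower. The 1 dps group was itself low for this list. Against uninjured ventricles its detected members had a median log2 change of -0.87, with 0 called higher and 3 lower. How far the 26 rest on single 3 dps libraries was not counted. cks2 had 1.99, 0.617, 3.06, 1.19 and 0 CPM at 1 dps, below every 3 dps library but replicate 4 (log2 change 4.13, SE 0.72, adjusted p 5.5e-05). aurkb had 0 to 1.23 CPM at 1 dps, below all 5 libraries of day 3 (log2 change 3.45, adjusted p 0.006). Of 36 clock genes 5 were higher at 3 dps than at 1 dps and 0 lower, against 1.73% and 1.17% of all genes. The smallest adjusted p among them was that of nr1d4b (log2 change 2.73, adjusted p 2.2e-06). At 1 dps 1 clock gene was called higher than in uninjured ventricles and 5 lower. The hour of sampling cannot be told apart from the groups.

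lmod2a, an actin filament gene of the sarcomere, had 697, 1063, 1110, 1153 and 723 CPM at 1 dps and 3349, 2430, 2671, 2971 and 1838 CPM at 3 dps (log2 change 2.25, SE 0.32, adjusted p 4.9e-07), against 4752 to 5376 CPM in uninjured libraries. tbc1d4, a regulator of glucose transporter traffic, had 55.8, 66.6, 58.8, 61.2 and 50.1 and then 224, 198, 154, 221 and 210 CPM (log2 change 1.90, SE 0.25, adjusted p 9.4e-08). ENSAMXG00000028691 had 18.4, 8.02, 16.8, 14.3 and 11.6 CPM at 1 dps (log2 change 3.16, SE 0.38, adjusted p 3.6e-09) and on day 3 was still below the uninjured range. mt2 (log2 change 2.05, adjusted p 1.6e-05) and btg2 (1.00, adjusted p 0.021) were likewise above day 1 and below uninjured. si:ch73-1a9.3, uncharacterised, changed by 1.85 (adjusted p 2.3e-08) and apoeb by 4.14 (adjusted p 0.00028). Macrophage markers were split in this comparison. Of 24 measured, 2 were higher than at 1 dps, apoeb and spi1b (log2 change 1.16, adjusted p 0.025). Another 2 were lower, mfap4 (-4.07, adjusted p 1.1e-06) and ctss2.1 (-1.12, adjusted p 0.048).

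**Figure D3:**
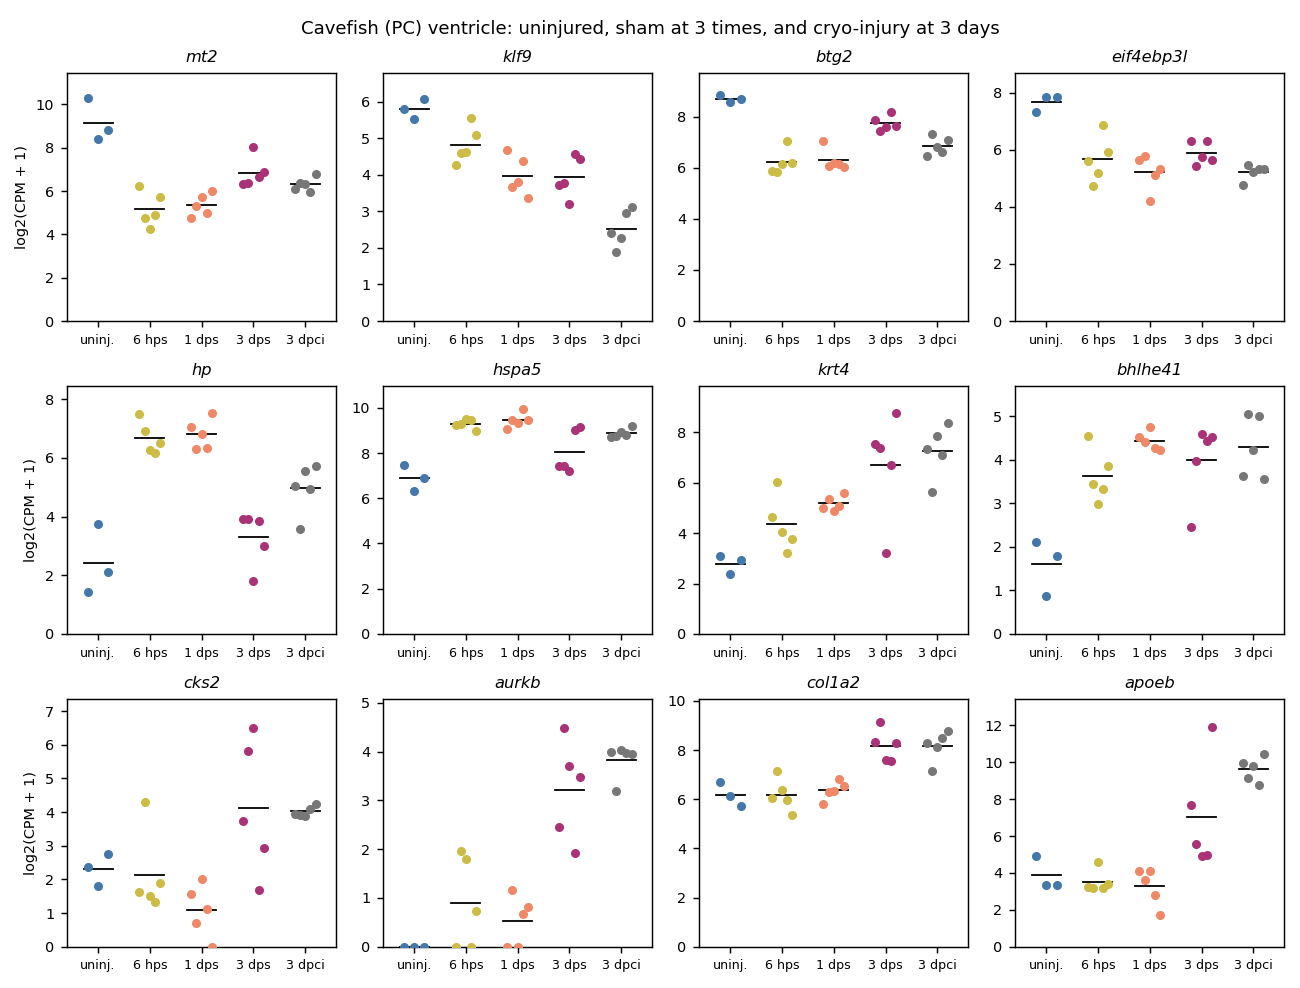
Expression of 12 genes as log2(CPM + 1) on the vertical axis in each PC ventricle: uninjured (n = 3), sham at 6 h, 1 day and 3 days, and cryo-injury at 3 days (n = 5 each); black lines are group means. The means of hp and hspa5 are highest at 6 hps and 1 dps, those of mt2 lowest, and col1a2 and apoeb are higher at 3 days.

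Cryo-injured PC ventricles of the same day, which share the 3 dps libraries as their control, had 355 genes called against 3 dps (1.89%), 161 higher (0.858%) and 194 lower (1.03%). For the genes above, klf9 was lower still after cryo-injury (4.29, 2.7, 3.84, 6.71 and 7.69 CPM, log2 change -1.93) and fkbp5 likewise (33.8, 65.8, 97.7, 84.6 and 134 CPM, log2 change -1.15). krt4 (48.6 to 331 CPM, log2 change -0.28), col1a2 (142 to 443 CPM, -0.37) and aurkb (8.09 to 15.4 CPM, 0.05) were not called between sham and cryo-injury. apoeb had 441 to 1407 CPM after cryo-injury, a range that lay above 4 of the sham libraries and below replicate 5, and was not called (log2 change -0.08).

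The same sham contrast in SF shares no library with that in PC. It called 447 genes (2.38%), 247 higher (1.32%) and 200 lower (1.07%). Of the higher genes 36 were called in both populations, 27.9% of the PC and 14.6% of the SF calls, and of the lower genes 10, 12.2% of the PC and 5.0% of the SF calls. Shared values stand side by side for krt4 (4.26 in PC and 3.06 in SF), si:ch211-156l18.7 (1.60 and 2.10), col1a2 (1.63 and 2.14), clu (2.33 and 1.45), mcm3 (2.34 and 2.46), txnipa (-1.10 and -1.05) and ddit4 (-1.78 and -1.62). In SF, 14 mitosis genes and 8 collagens were called higher.

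The difference between the 2 responses was tested as an interaction, the PC change minus the SF change. It called 94 genes (0.501%), 57 with a positive difference (0.304%) and 37 with a negative one (0.197%), and 22 of the 94 were also called between 3 dps and uninjured in PC. Without PC uninjured replicate 3 the count was 38 and without PC uninjured replicate 1 it was 51. Some genes named here were chosen after their values were seen, as members of the lists that the interaction called: fosab, fosb, fosl2, both NR4A1 genes, serpinh1b, acsl1b, hadhb, slc25a20, casq2, ndufc2 and ndufs5.

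Immediate early genes made up 5 of the 57 positive differences. NR4A1 (chromosome 22, 14898686 to 14910580), a nuclear receptor gene of the Nr4a family, had 162, 203 and 171 CPM in SF uninjured and 21.6, 32, 22.9, 30.3 and 10.8 CPM in SF 3 dps libraries. In PC the values were 47.6, 8.31 and 24.8 and then 62.9, 112, 30.9, 116 and 28.1 CPM. The interaction was 4.24 (SE 0.60, adjusted p 2.9e-06), with a PC change of 1.47 that did not pass (adjusted p 0.077) and an SF change of -2.78. The second gene with this name, nr4a1 on chromosome 15, had an interaction of 5.07 (adjusted p 5.7e-05). fosab, the c-Fos gene, had 17.6, 23.6 and 24.4 and then 3.08, 2.21, 1.68, 3.63 and 5.68 CPM in SF, and 5.85, 3.32 and 3.31 and then 19.1, 18.2, 6.3, 15 and 6.6 CPM in PC (interaction 4.29, SE 0.89, adjusted p 0.0037). fosb (4.15, adjusted p 0.0052) and fosl2 (2.21, adjusted p 0.04) are further AP-1 subunit genes. fosl2 was not called without PC sham replicate 2 (adjusted p 0.062) or 5 (0.11) or any 1 PC uninjured library (0.078 to 0.098). In each of the 5 the SF change was called lower and the PC change was positive but not called.

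adam19b, which encodes a membrane metalloproteinase (chromosome 24, 39844181 to 39879513), had the largest positive difference among the named genes. It stood at 2.51, 0.831 and 1.65 and then at 24.7, 13.2, 7.56, 11.7 and 15.8 CPM in PC (log2 change 2.86, adjusted p 0.01, or 0.079 and 0.069 without uninjured replicates 3 and 5), and at 9.14, 7.86 and 17.3 and then at 1.54, 1.1, 2.23, 3.63 and 2.84 CPM in SF (log2 change -2.61). The interaction was 5.47 (SE 0.83, adjusted p 1.3e-05). sik1 was higher after sham in PC and lower in SF (170, 189 and 53.6, then 94.7, 61.3, 50.8, 53.9 and 56.2 CPM, interaction 3.09, SE 0.47, adjusted p 1.3e-05). slc6a8, a creatine transporter gene, had 40.1, 55.7 and 57 and then 93.7, 155, 74.3, 83.3 and 267 CPM in PC (log2 change 1.40, adjusted p 0.0099, or 0.058 without sham replicate 5 and 0.06 without uninjured replicate 1) and differed by 2.36 (adjusted p 0.00022). tbc1d4 differed by 2.13 (adjusted p 6e-05) and hand2 by 1.24 (adjusted p 0.024).

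Negative differences included zbtb16b, with 2.61, 4.91 and 7.88 and then 12.3, 9.94, 8.38, 12.1 and 20.5 CPM in SF, where PC was lower after sham (interaction -4.20, SE 0.73, adjusted p 0.0002). mt2 (SF 49.6, 39.3 and 99.2, then 42.3, 56.4, 56.4, 58.7 and 57.4 CPM) differed by -2.39 (adjusted p 0.0021), or by -1.62 (adjusted p 0.12) without PC uninjured replicate 1. The PC uninjured level of mt2, 337 to 1248 CPM, was above all 8 SF libraries. glulb (-2.97, adjusted p 0.0086), klf13 (-1.46, adjusted p 0.047) and anxa1a (-5.99, adjusted p 0.0002) were lower in PC after sham with an SF change that was not called. That of anxa1a was -3.36 without PC uninjured replicate 3 (adjusted p 0.35). serpinh1b, a collagen chaperone gene, had 19.2, 15 and 24.8 and then 23, 13.2, 7.56, 6.66 and 20.2 CPM in PC, and 3.27, 0 and 0 and then 10, 22.1, 24, 19.4 and 23.3 CPM in SF (interaction -4.25, adjusted p 0.0033).

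Genes of mitochondria and fatty acid oxidation were among the 37 negative differences. ndufaf3, an assembly factor of complex I (chromosome 22, 18451301 to 18460332), had 18.4, 35.7 and 29.7 and then 6.74, 11.1, 13.9, 11.1 and 7.03 CPM in PC (log2 change -1.26, adjusted p 0.046, or 0.061 to 0.33 without any 1 of the 8 libraries but sham replicate 3 and uninjured replicate 1) and 12.4, 6.87 and 19.7 and then 30.8, 23.8, 39.1, 25.4 and 30.1 CPM in SF (log2 change 1.54). The interaction was -2.80 (SE 0.50, adjusted p 0.00026). Of 46 fatty acid genes 4 had a negative difference and 0 a positive one: acsl1b, which activates fatty acids (-1.58, adjusted p 0.039), slc25a20, the mitochondrial carnitine carrier (-1.43, adjusted p 0.035), fabp3 (-1.38, adjusted p 0.023) and hadhb, the beta subunit of the trifunctional protein (-1.24, adjusted p 0.034). Of 123 TCA cycle and oxidative phosphorylation genes 2 did, the complex I subunit genes ndufs5 (-1.33, adjusted p 0.04) and ndufc2 (-1.20, adjusted p 0.036), and of 28 cardiomyocyte markers casq2, the calcium store protein of the sarcoplasmic reticulum (-1.63, adjusted p 0.019), was 1 of 2, beside fabp3. SF had 7 fatty acid genes and 12 TCA cycle and oxidative phosphorylation genes called higher at 3 dps, and PC 0 and 1. The 7 genes from acsl1b to casq2 were called in 8 to 14 of 17 alternatives. Without the factor none of the 7 was called (adjusted p 0.058 to 0.24). Without PC sham replicates 3 and 5, fabp3 alone of the 7 was called and the others had adjusted p of 0.065 to 0.091. slc25a20 was not called without sham replicate 3 alone either (0.053), in which it was low. Without PC uninjured replicate 3 the differences of acsl1b, fabp3, hadhb, ndufs5, ndufc2 and casq2 were not called (adjusted p 0.15, 0.14, 0.071, 0.17, 0.16 and 0.12 in that order), nor was that of slc25a20 without PC uninjured replicate 1 (0.094) or 5 (0.082).

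**Figure D4:**
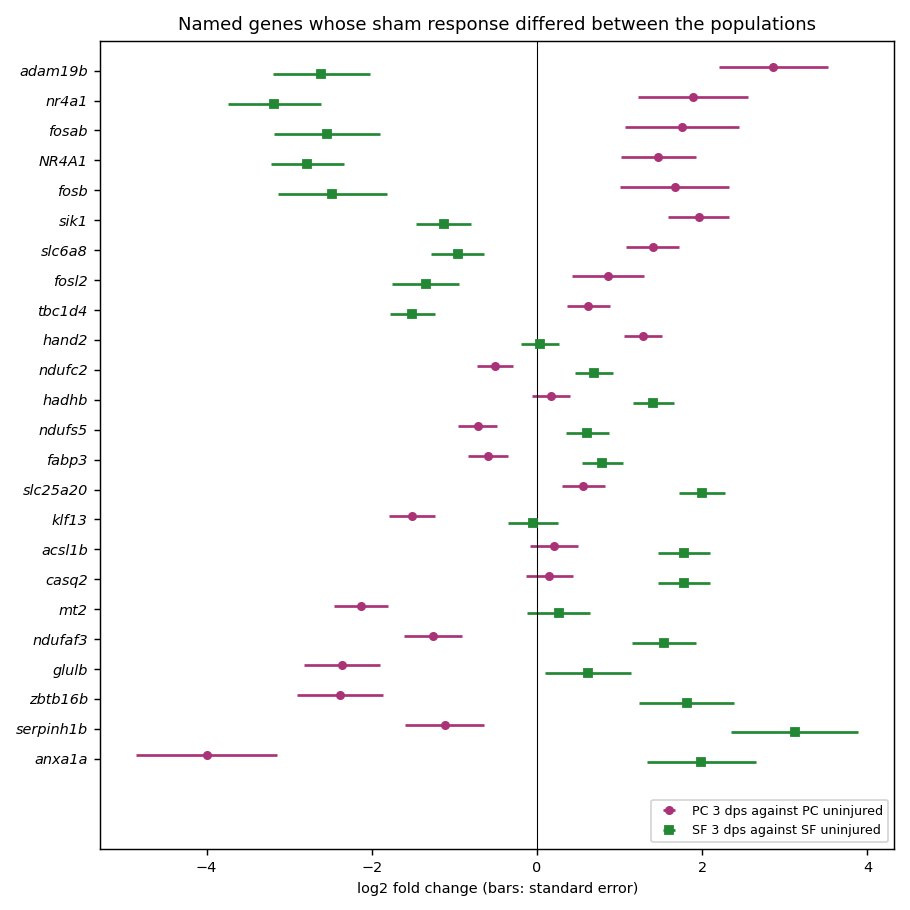
Log2 fold change at 3 dps against uninjured (horizontal axis, bars are standard errors) in PC (purple circles) and SF (green squares) for the 24 named genes with an interaction called. adam19b, NR4A1 and sik1 lie right of 0 in PC and left of 0 in SF, and zbtb16b and ndufaf3 lie the other way.

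Of the 65 chosen genes called between 3 dps and uninjured PC ventricles, 19 were called in each of the 18 alternatives: krt4, si:ch211-156l18.7, clu, anxa4, bhlhe41, sik1, purba, zgc:86709 and si:dkey-184p18.2 among those higher, and mt2, klf9, klf13, eif4ebp3l, hif1al, g6pcb, plvapb, tie1, sdhaf4 and ENSAMXG00000028691 among those lower. Without replicates 3 and 5, 45 of the 65 were called. Some of the genes named overlap others in the annotation, among them eif4ebp3l, plvapb, col1a2, pkma, si:ch211-156l18.7, prdx1, adam19b and ATP2A1. The last 2 each overlap 1 gene on the opposite strand. Whether the counting used strand is not given in the sources used here.

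**Figure D5:**
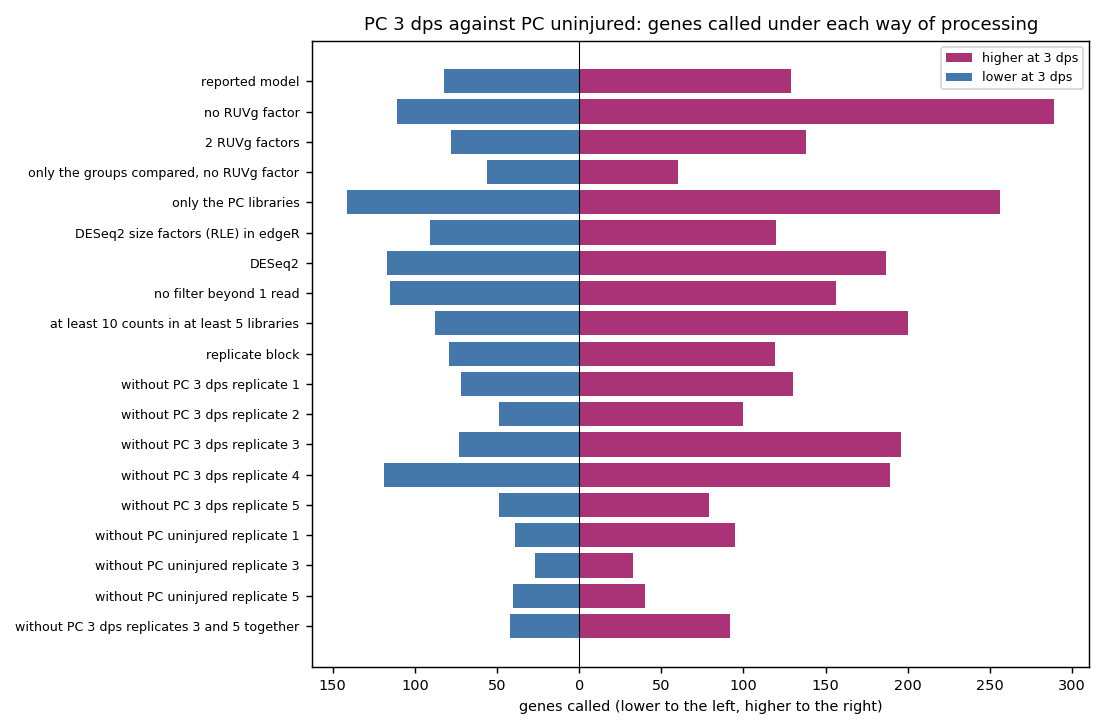
Number of genes called higher (purple, right) and lower (blue, left) between PC 3 dps and PC uninjured ventricles in the reported model and in each alternative. The reported model has 129 higher and 82 lower, the model without a factor 289 and 111, and the fit without uninjured replicate 3 has 33 and 27.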

How the data were processed

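Ventricle RNA was sequenced from its 3′ ends (QuantSeq 3′ FWD, 1 ventricle per library). The deposited values are raw counts per gene, which the authors made with bcl2fastq 2.20.0, Trim Galore 0.6.4 and STAR 2.7.6a against Mexican tetra 2.0 and a customised Ensembl 103 annotation, in which 8721 of 27420 gene models are custom. That genome is from surface fish, so cavefish reads were mapped across populations. The use of strand and of reads with several matches is not given in the sources used here, and the coordinates printed are those of the deposited annotation.

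A gene was kept when any library reached 1 CPM. Counts were tested with edgeR 4.0.16 (quasi-likelihood F-test) under R 4.3.3. All 96 libraries and 20 groups entered 1 model with TMM library sizes and 1 RUVg factor, whose number the study does not state. A gene was called at a Benjamini-Hochberg adjusted p under 0.05 over all genes and a fold change over 2. SE is the absolute log2 change divided by the square root of F. CPM values carry no factor. DESeq2 1.42.0 was an alternative. The others were no or 2 factors, the groups or the PC libraries alone and other size factors. Further ones were no or a stricter filter (10 counts in 5 libraries), the replicate number as a block and no minimum fold. Each PC 3 dps and PC uninjured library was left out in turn. In a last one 3 dps replicates 3 and 5 were left out together, chosen after seeing the data. No SF or PC 1 dps library was left out on its own. How far the interaction and the 1 dps comparison rest on any of them was not tested. The scripts were tested on simulated data with known changes. They called 4 of 50 genes changed 2-fold, 17 of 50 changed 4-fold and 30 of 50 changed 16-fold. Among genes with at least 10 CPM these were 4 of 15, 15 of 17 and 17 of 17. A change of 2-fold equals the fold limit for a call, so the limit itself holds down the counts at 2-fold. Of the unchanged genes 2 were called. Apart from the known changes each simulated gene had 1 mean in all groups. No unwanted variation was simulated, nor libraries as unlike as 3 dps replicates 3 and 5. The 2 calls therefore do not give a rate of false calls in these data. A gene not called here may, as in the simulation, still have changed.

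The members and the 33 gene lists were chosen with earlier results of these data known. Named genes were the 12 higher and 12 lower called genes with the smallest adjusted p and a symbol of 1 gene, up to 4 called members of each list (where none was called, the 2 most abundant), and up to 6 genes called in the interaction and against 1 dps. Another 14 were added after their values were seen, and 1 chosen gene, counted in totals, is not reported here. Replicates are separate fish. Intervals and floors (3 counts, 95% confidence) cover counting error only.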

Additional observations from a re-analysis of the deposited data

Results flagged for a closer look

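In 100 genes chosen for description the highest or lowest of the 5 PC 3 dps libraries was checked for a gap to the others, and chance alone gives such a gap in about 1 of 20 groups. It was found in 3 genes, fewer than this rate would give in 100. Each time it was in replicate 3: si:ch73-1a9.3 at 952 CPM was high, slc25a20 at 30.2 CPM and socs1a at 4.41 CPM were low. This library also had the most erythroid RNA. The part of that in these values was not tested.

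The change at 3 dps differed between PC and SF, by the interaction test, in 24 of the named genes (log2 PC change minus SF change). It was positive for adam19b (5.47), nr4a1 (5.07), fosab (4.29), NR4A1 (4.24), fosb (4.15), sik1 (3.09), slc6a8 (2.36), fosl2 (2.21), tbc1d4 (2.13) and hand2 (1.24). It was negative for anxa1a (-5.99), serpinh1b (-4.25), zbtb16b (-4.20), glulb (-2.97), ndufaf3 (-2.80), mt2 (-2.39), casq2 (-1.63), acsl1b (-1.58), klf13 (-1.46), slc25a20 (-1.43), fabp3 (-1.38), ndufs5 (-1.33), hadhb (-1.24) and ndufc2 (-1.20). Of these, adam19b, fosab, fosb, ndufaf3, nr4a1, NR4A1, serpinh1b, sik1, slc6a8, tbc1d4 and zbtb16b were called in each of 17 alternatives. None of the 17 left out an SF uninjured or SF 3 dps library. SF uninjured replicates 1 to 3 had 170, 189 and 53.6 CPM for sik1 and 120, 73.7 and 18.9 CPM for nr4a1.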

How the results depend on the processing

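The 211 calls became 400 without the factor, 116 in the 8 libraries alone, 397 in the PC libraries alone and 134 without 3 dps replicates 3 and 5, and leaving out 1 library gave 60 (without uninjured replicate 3) to 308 (without 3 dps replicate 4). Without uninjured replicates 5 and 1 the counts were 80 and 134, and without 3 dps replicate 5 the count was 128. The share of calls that were higher was 61.1%, against 72.2% without the factor, 51.7% in the 8 libraries alone and 50% without uninjured replicate 5. The 94 interaction calls became 289 with DESeq2, 169 with the stricter filter and 38 to 145 with 1 PC 3 dps or PC uninjured library left out. The 545 calls against 1 dps became 913 without the factor, 232 with 2 factors, 975 with the stricter filter and 318 to 789 with a PC 3 dps library left out. SF and 1 dps libraries were not left out. With the replicate number as a block the counts were 198, 65 and 498. The deviations of same-numbered libraries correlated at r -0.01, 0.12 and 0.03, against -0.14 to 0.09 for the other pairs. So few same-numbered pairs cannot tell whether the numbers pair the fish. The cause of these shifts was not tested.

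For the genes chosen for description, 1939 values over the alternatives kept their direction and their side of the threshold, 253 lost and 15 gained the call, and 40 changed sign, each in a gene that was not called. Without the factor the log2 change was -0.15 for acsl1b, -0.22 for casq2, -0.03 for hadhb, 0.49 for IL2RB, -0.30 for mb and -0.08 for mdh2. In the 8 libraries alone these were -0.14, -0.20, -0.01, 0.51, -0.29 and -0.07 in the same order. In the PC libraries alone they were -0.13 for acsl1b, -0.21 for casq2, 0.37 for IL2RB, -0.24 for mb and -0.02 for mdh2. For got2a 2 factors gave 0.08 and the stricter filter 0.02. Without 3 dps replicates 3 and 5 the values were -0.39 for cxcr4b, -0.37 for il2rb, 0.19 for il6st, -0.18 for si:ch73-1a9.3 and -0.03 for tagln. With 1 library left out they ran from -0.17 to 0.32 for cxcr4b, -0.16 to 0.11 for got2a, -0.27 to 0.40 for il2rb, -0.31 to 0.10 for il6st, -0.12 to 2.50 for LYZ, -0.04 to 0.23 for mb, -0.18 to 0.35 for si:ch73-1a9.3, -0.22 to 0.05 for si:ch73-86n18.1 and -0.01 to 0.52 for tagln. The fit of the PC libraries alone gives no interaction. Depth limits genes at or under 3 reads per library, or 1.32 to 2.51 CPM here.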
